A study of Mus musculus with 16 samples.

Results

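The comparison described here set bulge cells sorted 4 weeks after tamoxifen against bulge cells from untreated mice, 2 of the 16 arrays of the series. The arrays were chosen by their titles alone, and each condition was a single array. The bulge SmoM2 array held cells of tail epidermis from tamoxifen-treated K19CREERT2/Rosa-SmoM2-YFP mice of mixed strain. The bulge control array held cells from untreated mice of that genotype, and both arrays carried the cell type label of bulge and outer root sheath. Sorting was by flow cytometry, and ages are not given in the labels. In these mice a tamoxifen-inducible Cre under keratin 19 control releases SmoM2, an always-active form of the hedgehog transducer Smoothened, together with a yellow fluorescent reporter. Interfollicular epidermis (IFE) arrays were used as a scale, and the 4-week SmoM2 and control ones also for an IFE difference set beside the bulge one. The IFE arrays were SmoM2 cells from K14CREER/Rosa-SmoM2-YFP mice 3 days (1 array), 1 week (3), 4 weeks (3) and 10 weeks (2) after tamoxifen, SmoM2 cells that also lacked β-catenin at 4 weeks (2, b-cat flox/flox), and untreated control (3). Every line carried Rosa-SmoM2-YFP, and the labels do not say whether animals were pooled.

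Several label facts limit the pair. The source label of the bulge control calls its untreated cells SmoM2-positive, and the array was taken as the control that its title names. Its description names CD34, a surface protein used to sort bulge cells, while the description of the bulge SmoM2 array does not, so the sort gates may have differed. Whether they did was not tested. SmoM2, tamoxifen and the 4 weeks after it cannot be told apart in this pair. The control array also had both female and male signal, which the SmoM2 array had not: Xist was 12.51 in bulge SmoM2 and 12.04 in bulge control, while the Y-linked genes Eif2s3y, Kdm5d and Uty were 3.71, 3.18 and 3.54 in bulge SmoM2, against 7.94, 5.42 and 5.68 in bulge control.

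The bulge is the niche of hair follicle stem cells. It lies in the outer root sheath and feeds the growing follicle in each hair cycle. In hedgehog signalling a ligand binds the receptor Ptch1, which frees Smoothened, and the Gli transcription factors then switch on targets that include Gli1, Ptch1 and Hhip. Hedgehog signalling drives follicle growth in skin, and its constant activity causes basal cell carcinoma.

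Values are log2 signals of probe sets, so a difference of 1 is a 2-fold change, and all differences are bulge SmoM2 minus bulge control unless stated. Of 18194 genes, 14286 passed a filter that asked for a signal over the array's 40th percentile on 2 arrays or more. Signal was at least 2-fold higher in bulge SmoM2 for 622 of them (4.35%) and at least 2-fold lower for 370 (2.59%). With 1 array a side no test was possible, so the spread among IFE replicates served as the yardstick. A difference is called beyond the IFE spread where it was at least 2-fold and larger than every difference between 2 arrays of 1 IFE group. That held for 247 genes that were higher (1.73%) and 188 that were lower (1.32%). Set against the 3 IFE control arrays alone, 521 and 299 genes passed. Bulge arrays were assumed, not shown, to vary like IFE arrays. The yardstick can be small for genes with little IFE signal, which makes it easier to pass. Pid1, for example, lay between 4.25 and 4.94 in the 4-week and control IFE arrays, with an IFE spread of 0.60. For genes that vary in the IFE the yardstick is strict, as for Krt6b, with a spread of 7.59. The median difference over all genes was 0.01.

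By the count of 2-fold genes and by the median difference, the bulge arrays were no further apart than most replicates of an IFE group, but by the count of 4-fold genes they were further apart than most. Between them 992 genes differed at least 2-fold (6.94%), while the 11 pairs of IFE replicates differed in 48 to 2668 genes, with a median of 1330, and 7 of the 11 differed in more genes than the bulge pair. For differences of at least 4-fold, 237 genes passed in the bulge pair, and 3 of the 11 replicate pairs had more. The median absolute difference was 0.21 in the bulge pair and 0.12 to 0.48 in the replicate pairs, 10 of which were above it. Pairs of 1 IFE SmoM2 array at 4 weeks and 1 IFE control array differed in 1214 to 2943 genes. Each bulge difference given here is therefore a value of 2 arrays with no replicate, and genes that pass the IFE spread are described, not tested.

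**Figure D1:**
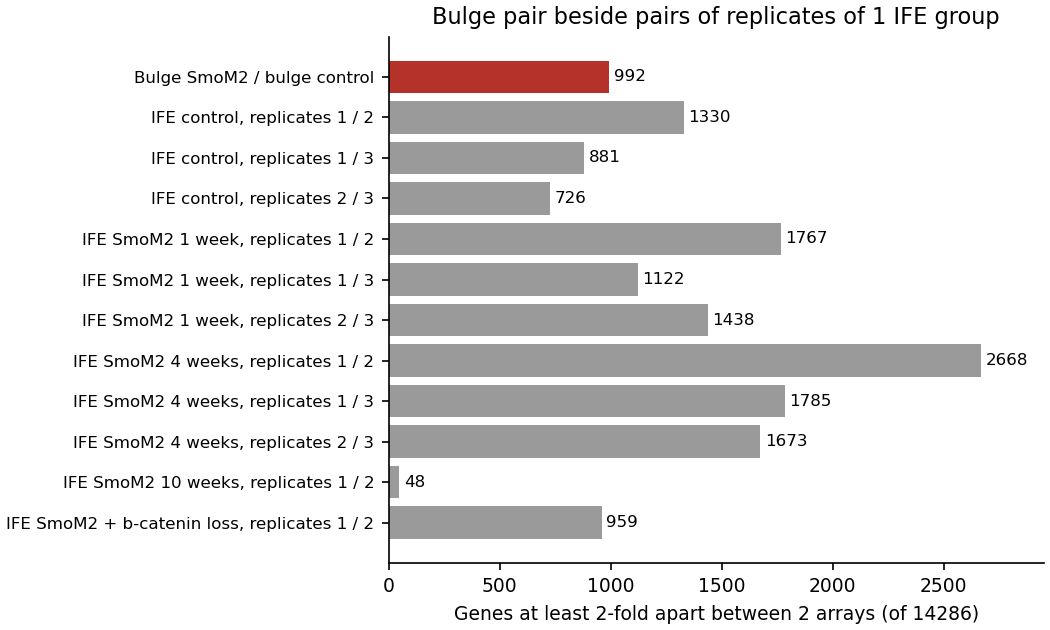
Number of genes at least 2-fold apart between 2 arrays, of 14286 genes, for the bulge pair (red bar, top) and for each of the 11 pairs of replicates of 1 IFE group (grey bars). The bulge pair, at 992 genes, lies below 7 of the 11 replicate pairs, and the 10-week pair stands apart at 48.

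**Figure D2:**
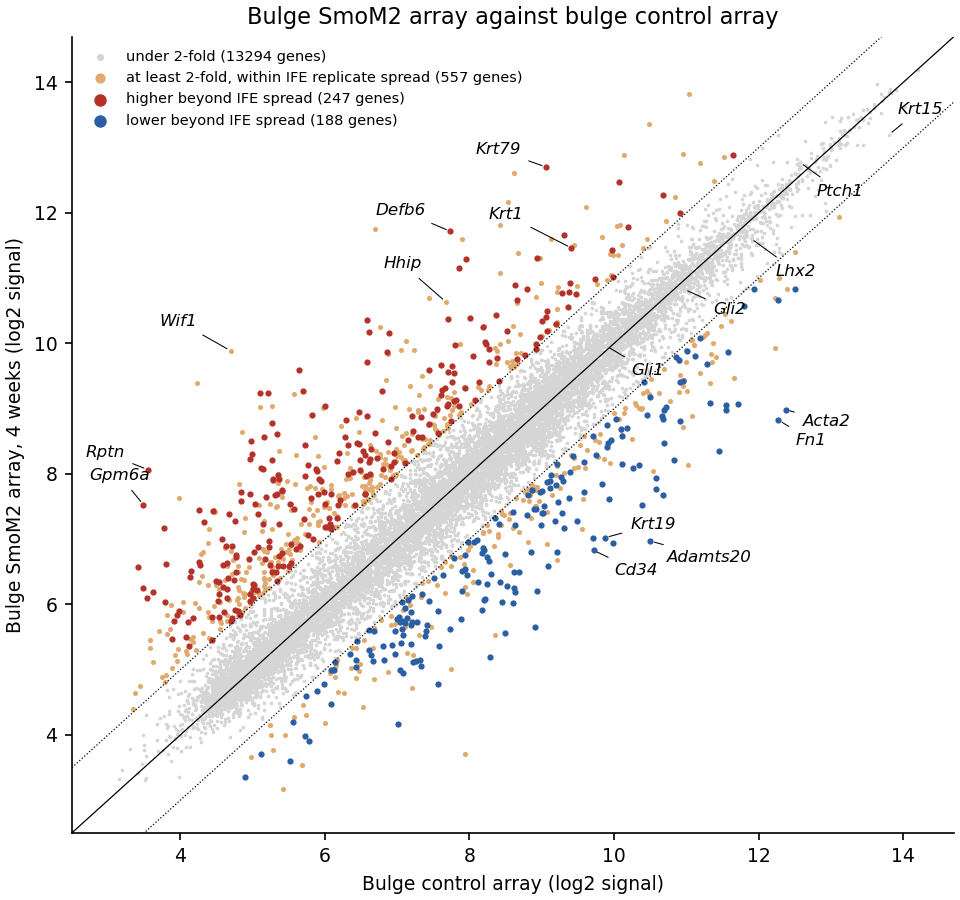
Log2 signal of 14286 genes in the bulge SmoM2 array (vertical axis) against the bulge control array (horizontal axis); 1 point is 1 gene, the solid line marks equal signal and the dotted lines 2-fold. Red points (247) are higher and blue points (188) lower beyond the spread of IFE replicates, while Gli1, Gli2 and Ptch1 lie on the line.

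Gli1, Ptch1 and Gli2 had high signal in both bulge arrays and differed little between them, while the target Hhip was 7.81-fold higher in bulge SmoM2 and Ccnd2, Igfbp6 and Tbx1 were at least 2-fold lower. Gli1, the transcription factor most used as a readout of the pathway, was 9.96 in bulge SmoM2 and 9.89 in bulge control. In the IFE it was 10.55, 10.83 and 9.95 in the SmoM2 arrays at 4 weeks, against 5.73, 5.58 and 5.30 in the controls. The bulge control was thus well above all 3 IFE controls and just below the lowest of the 3 IFE SmoM2 arrays. Ptch1, the receptor and a target, was 12.78 in bulge SmoM2 and 12.57 in bulge control, with IFE SmoM2 at 13.60, 12.92 and 12.64 and IFE control at 9.10, 8.66 and 9.11. Its 3 probe sets disagreed, with differences between -1.53 and 0.44. Gli2, the main activator, was 10.83 in bulge SmoM2 and 10.97 in bulge control, and Mycn, a growth target, differed by 0.08. In IFE controls Gli2 lay between 7.22 and 8.10.

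Hhip and Wif1, which restrain signalling, stood higher without passing the IFE spread. Hhip, a surface protein that binds and traps hedgehog ligands, was 10.64 in bulge SmoM2 and 7.67 in bulge control, a 7.81-fold difference. All 4 of its probe sets were higher, by 2.23 to 2.96, but IFE replicates of 1 group differed by up to 3.43. In the IFE Hhip was 10.29, 11.19 and 8.84 in SmoM2 arrays at 4 weeks and 6.78, 5.09 and 7.12 in controls, so the bulge SmoM2 value lay within the SmoM2 range. Wif1, a secreted Wnt inhibitor that is also a bulge marker, was 9.89 in bulge SmoM2 and 4.70 in bulge control (36.5-fold, IFE replicate spread 5.76). Its single probe set was below the 40th percentile of the array, 4.91, in bulge control.

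Ligands and receptors otherwise differed little: of the 10 that passed the filter, 1 was at least 2-fold higher and 2 were at least 2-fold lower, with a median of -0.14. Both lower ones were beyond the IFE spread, as were 1.32% of all genes. Over all genes 4.35% were 2-fold higher and 2.59% 2-fold lower. Scube2, which helps release hedgehog ligands from cells, was 5.62 in bulge SmoM2 and 7.06 in bulge control. Dhh, the ligand Desert hedgehog, was 5.59 and 6.67, and its second probe set differed by only -0.24, so that the mean of both fell short of 2-fold at -0.66. Shh, the ligand of the growing follicle, was near the floor at 5.34 in bulge SmoM2 and 5.42 in bulge control. The coreceptors Cdon (7.36 and 7.42), Boc (8.15 and 8.35) and Gas1 (12.43 and 12.32) each differed by 0.20 or less.

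None of the 13 transducers and repressors that passed differed 2-fold, and the median was -0.06. Smo itself was 10.39 in bulge SmoM2 and 10.80 in bulge control, and its 3 probe sets differed by -0.44 to -0.40. Sufu, which holds Gli proteins back, was higher by 0.21, and Gli3, mainly a repressor, was 9.35 in bulge SmoM2 and 9.09 in bulge control. Kif7, which carries Gli proteins in the cilium, was 8.47 and 8.51. Of the 14 target genes, 1 was 2-fold higher and 3 were 2-fold lower (4.35% and 2.59% over all genes), with a median of 0.04. Ccnd2, a cyclin that drives entry into the cell cycle, was 9.68 in bulge SmoM2 and 11.29 in bulge control (3.05-fold lower), with differences of -2.01 to -1.48 over its 7 probe sets. It was beyond the IFE spread of 0.90, as was Igfbp6, a binding protein of insulin-like growth factors, at 5.88 in bulge SmoM2 and 7.20 in bulge control.

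**Figure D3:**
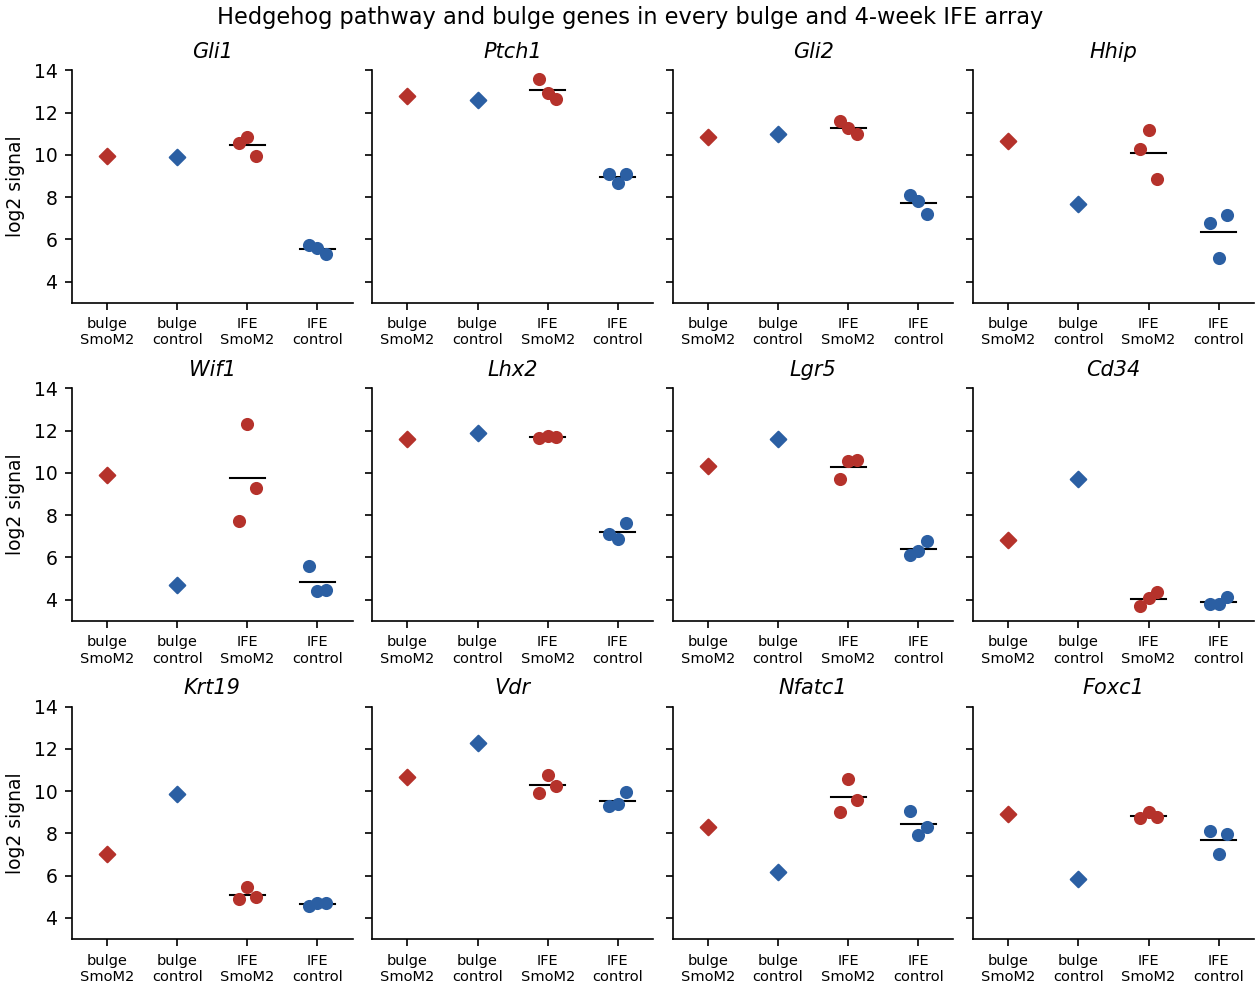
Log2 signal of 12 hedgehog and bulge genes in bulge SmoM2 and bulge control (diamonds, 1 array each), IFE SmoM2 at 4 weeks and IFE control (circles, 3 arrays each, the bar marks the mean). Gli1, Ptch1, Gli2 and Lhx2 are level in the bulge pair and far apart in the IFE, while Cd34 and Krt19 are highest in bulge control, then in bulge SmoM2.

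Promoters of these genes were searched for the Gli consensus GACCACCCA, on both strands, in the RefSeq windows of 250 bases before to 50 after each start site (GRCm38.p6). It stood in 0 of 31 promoters of 27 hedgehog genes and in 83 of 32851 promoters overall (0.253%). These letters are therefore absent from those windows, and other places were not searched.

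Bulge identity genes split. Cd34 was 6.83 in bulge SmoM2 and 9.72 in bulge control, 7.40-fold lower and beyond the IFE spread of 1.93. In the IFE it was 3.68, 4.10 and 4.35 in SmoM2 arrays at 4 weeks and 3.80, 3.78 and 4.15 in controls, so the bulge SmoM2 value lay between the bulge control and all of these. Only the description of bulge control names CD34, and whether the sort gate bears on the Cd34 difference was not tested. Krt19, whose promoter drives the Cre here, was 7.02 in bulge SmoM2 and 9.88 in bulge control (7.22-fold lower, IFE spread 1.29). Vdr, the vitamin D receptor needed for hair cycling, was 10.66 in bulge SmoM2 and 12.27 in bulge control, with both probe sets lower. Fgf5, a bulge and outer root sheath signal that ends hair growth, was 5.13 in bulge SmoM2 and 6.66 in bulge control.

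Lhx2, Tcf7l1 and Sox9, transcription factors of the niche, differed by less than 2-fold. Lhx2, which keeps bulge cells in the stem state, was 11.61 in bulge SmoM2 and 11.89 in bulge control. Tcf7l1, a repressor of Wnt targets, was 9.77 and 10.18, and Sox9, the master factor of the outer root sheath, was 10.49 and 9.84. Lgr5, a receptor that boosts Wnt signalling, was 10.34 in bulge SmoM2 and 11.62 in bulge control, within an IFE spread of 3.22. Tbx1 was 10.06 and 11.08, Dkk3 8.20 and 8.90, Krt15 13.20 and 13.80, and Itga6 11.09 and 11.54. Each of those last 4 differed by -1.03 to -0.45, inside its IFE spread.

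Other members went the opposite way. Foxc1, which limits stem cell activation, was 8.90 in bulge SmoM2 and 5.82 in bulge control, 8.43-fold higher with both probe sets higher. Nfatc1, which holds bulge cells in rest, was 8.32 in bulge SmoM2 and 6.19 in bulge control, with 4 of 5 probe sets higher. Both passed their IFE spreads of 2.31 and 1.67, yet bulge control was below every 4-week and control IFE array for each. Of the 25 bulge markers that passed, 4 were 2-fold higher and 4 were 2-fold lower, 2 each way beyond the IFE spread, with a median of -0.20. The shares over all genes were 4.35% and 2.59%, and beyond the spread 1.73% and 1.32%.

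Genes of epidermal differentiation formed a broad block of higher signal. Of 29 interfollicular differentiation and cornified envelope genes that passed, 22 were at least 2-fold higher and 0 were 2-fold lower, with a median of 2.04. Over all genes 4.35% were 2-fold higher and the median was 0.01. Beyond the IFE spread were 7, beside 1.73% over all genes: Krt1, Dsg1a, Dsc1, Tgm3, Grhl1, Sprr1a and Rptn. Krt1, the first keratin of cells that leave the basal layer, was 11.46 in bulge SmoM2 and 9.41 in bulge control. Its partner Krt10 was 13.20 and 12.27, short of 2-fold. Dsc1, a desmosomal cadherin of upper layers, was 11.30 in bulge SmoM2 and 7.95 in bulge control (10.2-fold), and Dsg1a was 10.83 and 8.80.

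Rptn had the largest difference of the pair that passed the IFE spread. This calcium-binding protein of the cornified envelope was 8.07 in bulge SmoM2 and 3.55 in bulge control (22.9-fold), although 1 of its 3 probe sets differed by -0.20. Bulge control was below the 40th percentile of its array, so the ratio rests on a low signal. Tgm3, a transglutaminase that crosslinks the envelope, was 8.89 in bulge SmoM2 and 6.58 in bulge control. Signal of Sprr1a, an envelope precursor, was 10.36 in bulge SmoM2 and 6.58 in bulge control (13.7-fold). Flg, the source of filaggrin, was 7.53 and 5.08, inside an IFE spread of 4.22, and Lor was 9.28 and 8.43.

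The epidermal differentiation complex is a cluster of neighbouring genes for envelope and S100 proteins, taken here from S100a10 to S100a1 after the values had been seen. Of its 42 genes that passed, 26 were at least 2-fold higher (4.35% over all genes), 0 were 2-fold lower and 40 were above 0. Their median was 1.63. The differentiation list above shares 10 of these genes, and of the other 32, 18 were 2-fold higher, with a median of 1.27. Crct1, Lce1c, Rptn, S100a3, Sprr1a, Sprr2f, Sprr2i and Tchh were beyond the IFE spread, beside 1.73% over all genes. Lce1c, of the late envelope, was 9.24 in bulge SmoM2 and 5.21 in bulge control. The alarmins S100a8 (12.17 in bulge SmoM2, 8.53 in bulge control) and S100a9 (11.59 and 7.90) were far apart too, but IFE replicates differed by up to 7.29 and 6.96 for them.

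Transcription factors of the differentiation programme were higher in part. Of 19, a list also set after the values were seen, 11 were 2-fold higher and 0 were 2-fold lower. Their median was 1.18, and over all genes 4.35% were 2-fold higher. Ehf, an epithelial Ets factor, was 8.78 in bulge SmoM2 and 5.27 in bulge control, with 3 of 4 probe sets higher. Grhl1, which controls desmosomal cadherins, was 10.43 and 8.37, and Ovol1 was 7.74 and 5.41. Prdm1, the repressor Blimp1 of late keratinocytes and sebaceous precursors, was 8.46 in bulge SmoM2 and 6.48 in bulge control. Klf5 (8.65 and 7.22), Hopx (11.43 and 9.97) and Zfp750 (8.57 and 7.34) completed the 7 beyond the IFE spread, beside 1.73% over all genes.

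**Figure D4:**
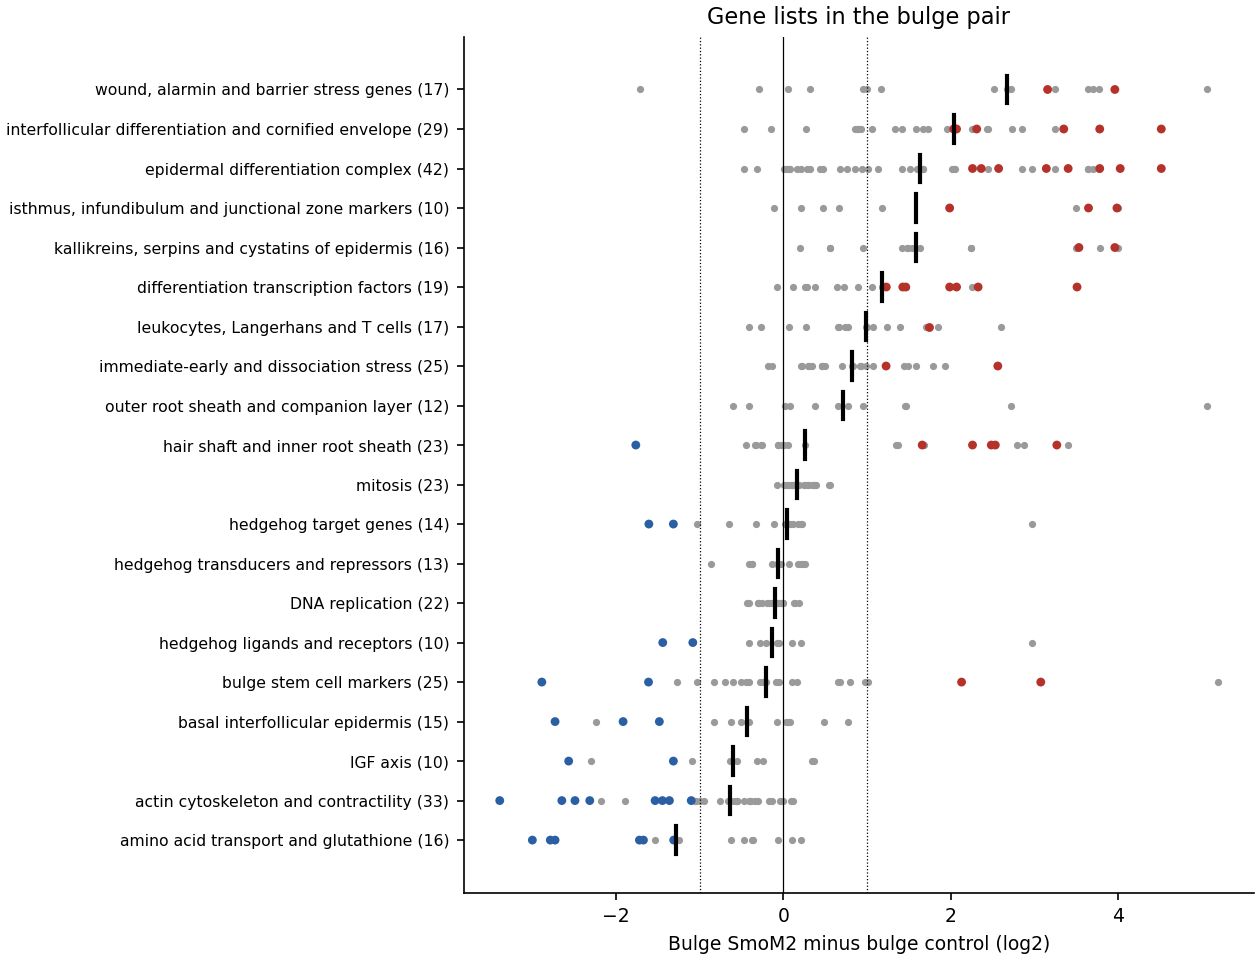
Bulge SmoM2 minus bulge control (log2) of every gene that passed the filter in 20 lists, whose sizes are in brackets; grey points are within the spread of IFE replicates or under 2-fold, red points higher and blue points lower beyond it, and black bars mark medians. Differentiation, wound and isthmus lists lie to the right with medians of 1.18 to 2.67, hedgehog lists near 0, and the actin and amino acid lists to the left at -0.64 and -1.28.

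Protease, inhibitor and stress genes of the upper follicle and epidermis were higher as well. The gene lists share members, so they are not separate blocks. Serpinb3a is in both the kallikrein and the wound list. S100a8, S100a9, Sprr1b and Sprr2d are in both the wound list and the complex. Klk7 and Cst6 are also isthmus markers, and Grhl1, Grhl3 and Klf4 are in both the factor and the differentiation list. All 16 kallikreins, serpins and cystatins, a list also set after the values were seen, were above 0 and 12 were 2-fold higher. Their median was 1.58, and over all genes 4.35% were 2-fold higher. Of the 16 genes 2 passed the IFE spread, beside 1.73% over all genes. Klk6, a serine protease, was 8.51 in bulge SmoM2 and 4.97 in bulge control, and Serpinb3a, an inhibitor of proteases, was 9.60 and 5.63. Among 17 wound, alarmin and barrier stress genes 12 were 2-fold higher and 1 was 2-fold lower, beside 4.35% and 2.59% over all genes. Their median was 2.67, but only Serpinb3a and the antimicrobial Defb3 (6.58 in bulge SmoM2, 3.42 in bulge control) passed the IFE spread. Krt6b, a keratin of wounded skin and the companion layer, was 11.75 in bulge SmoM2 and 6.70 in bulge control (33.3-fold). The IFE replicates differed by as much as 7.59 for it. Krt16 was 11.39 and 8.67.

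Isthmus and infundibulum markers, which belong to the follicle above the bulge, had a median of 1.59. Of the 10, 6 were at least 2-fold higher and 0 were 2-fold lower, beside 4.35% higher over all genes. Krt79, a keratin of the infundibulum and duct, was 12.70 in bulge SmoM2 and 9.06 in bulge control (12.5-fold, IFE spread 1.26). Its IFE values were 12.78, 12.12 and 13.38 in SmoM2 arrays at 4 weeks and 12.13, 11.33 and 11.77 in controls, so it was bulge control that stood apart. Defb6, a beta-defensin, was 11.72 in bulge SmoM2 and 7.73 in bulge control. Lrig1, a stem cell marker of the junctional zone, was 10.98 and 10.32, and Plet1 was 10.03 and 9.55.

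The list of hair shaft and inner root sheath genes was mixed, with 14 of 23 above 0 and 9 below 0. Named here are its genes beyond the IFE spread. Krt25 was 8.61 in bulge SmoM2 and 5.34 in bulge control, Krt28 was 8.82 and 6.29, Krt27 was 6.88 and 5.22, and Tchh, the trichohyalin of the sheath, was 6.90 and 4.64. Krt35, a keratin of the hair cuticle and cortex, was 8.95 and 6.47. All 5 passed the IFE spread. Padi3, an enzyme that modifies trichohyalin, also passed it but was lower, at 7.22 in bulge SmoM2 and 8.98 in bulge control. Of all genes 1.73% were higher and 1.32% lower beyond that spread. Of the 23 genes in the list 11 were 2-fold higher and 1 was 2-fold lower, beside 4.35% and 2.59% over all genes. The median was 0.26, or 1.36 with a filter on the mean of both bulge arrays.

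Genes of the contractile actin cytoskeleton formed a block of lower signal. In a list of them set after the values were seen, 31 of 33 were below 0, 12 were at least 2-fold lower and 0 were 2-fold higher, with a median of -0.64, beside 2.59% lower over all genes. Acta2, smooth muscle actin, was 8.99 in bulge SmoM2 and 12.38 in bulge control, 10.5-fold lower, and its 3 probe sets differed by -3.39 to -0.40. In the IFE it was 6.73, 6.62 and 6.98 in SmoM2 arrays at 4 weeks and 7.08, 6.15 and 6.83 in controls, so both bulge arrays lay above them. Tagln, which binds actin filaments, was 9.07 in bulge SmoM2 and 11.72 in bulge control. Zyx, of focal adhesions, was 7.61 and 9.93, and Fhl1, a LIM protein, was 9.06 and 11.55. Pdlim7, Smtn, Ilk and Flna differed by -1.45, -1.53, -1.36 and -1.10 and also passed the IFE spread. In all 8 genes of the list were lower beyond it, beside 1.32% over all genes.

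Many genes of this kind are regulated by serum response factor, which binds the CArG box. A CArG box stood in 9 of 38 promoters of the actin list (23.7%) and in 535 of 32851 promoters overall (1.63%). Among promoters of the actin genes that were at least 2-fold lower it stood in 3 of 13 (23.1%). The share among the lower genes was thus about that of the whole list. These 3 are printed as the lower genes with the box, of which only the first was beyond the IFE spread: Fhl1, Myl9 (8.89 in bulge SmoM2, 11.07 in bulge control, inside an IFE spread of 2.39) and Cnn2 (9.46 and 10.51, IFE spread 1.26). Capitals mark the CArG box, which begins at -102, -161 and -56 from the start site. The RefSeq windows (GRCm38.p6) are chrX:56779433-56779732, chr2:156775214-156775513 and chr10:79988350-79988649, all on the plus strand.
Fhl1: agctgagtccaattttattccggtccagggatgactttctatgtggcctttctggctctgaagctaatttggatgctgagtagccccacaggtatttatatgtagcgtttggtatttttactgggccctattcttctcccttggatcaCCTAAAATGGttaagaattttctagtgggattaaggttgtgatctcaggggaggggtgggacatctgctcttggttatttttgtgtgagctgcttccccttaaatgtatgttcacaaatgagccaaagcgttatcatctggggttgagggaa
Myl9: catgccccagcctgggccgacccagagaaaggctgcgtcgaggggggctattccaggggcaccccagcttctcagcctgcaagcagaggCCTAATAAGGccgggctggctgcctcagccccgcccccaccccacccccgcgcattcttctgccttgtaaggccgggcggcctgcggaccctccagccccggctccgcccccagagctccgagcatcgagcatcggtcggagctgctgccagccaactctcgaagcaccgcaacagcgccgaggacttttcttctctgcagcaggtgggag
Cnn2: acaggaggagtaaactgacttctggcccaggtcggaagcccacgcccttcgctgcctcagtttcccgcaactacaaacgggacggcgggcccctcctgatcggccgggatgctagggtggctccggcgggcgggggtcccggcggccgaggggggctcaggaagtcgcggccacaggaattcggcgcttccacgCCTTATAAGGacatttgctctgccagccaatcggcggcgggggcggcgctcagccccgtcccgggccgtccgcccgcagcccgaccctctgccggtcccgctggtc
A match describes these letters and shows no binding.

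Some of the largest differences fell in no list above. Ang, the secreted ribonuclease angiogenin, was 9.24 in bulge SmoM2 and 5.11 in bulge control, with all 3 probe sets higher. Acer1, a ceramidase of the epidermal barrier, was 10.17 and 6.62. It belongs to a list of epidermal lipid barrier genes, also set after the values were seen, which shifted less than the differentiation list. Of its 15 genes that passed, 6 were at least 2-fold higher and 0 were 2-fold lower, beside 4.35% higher over all genes. The median was 0.41, against 2.04 in the differentiation list. Only Acer1 and Cyp4f39 were beyond the IFE spread, beside 1.73% over all genes. Gpm6a, a membrane glycoprotein known from neurons, was 7.53 in bulge SmoM2 and 3.49 in bulge control, a level below the 40th percentile of that array, and Adh6b, an alcohol dehydrogenase, was 8.57 and 5.16. On the lower side, Ly6e, a surface protein of the Ly6 family, was 7.52 in bulge SmoM2 and 10.39 in bulge control. Lgals9, a galectin, was 5.56 and 8.49, Fbln7, a fibulin of the matrix, was 6.94 and 9.98, and Pid1, an adaptor protein, was 5.20 and 8.28. Lrrc75b, Mamdc2 and Lhfp, of less known function, differed by -3.25, -2.84 and -2.81. Mamdc2 was below the 40th percentile of the array in bulge SmoM2, at 4.17.

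**Figure D5:**
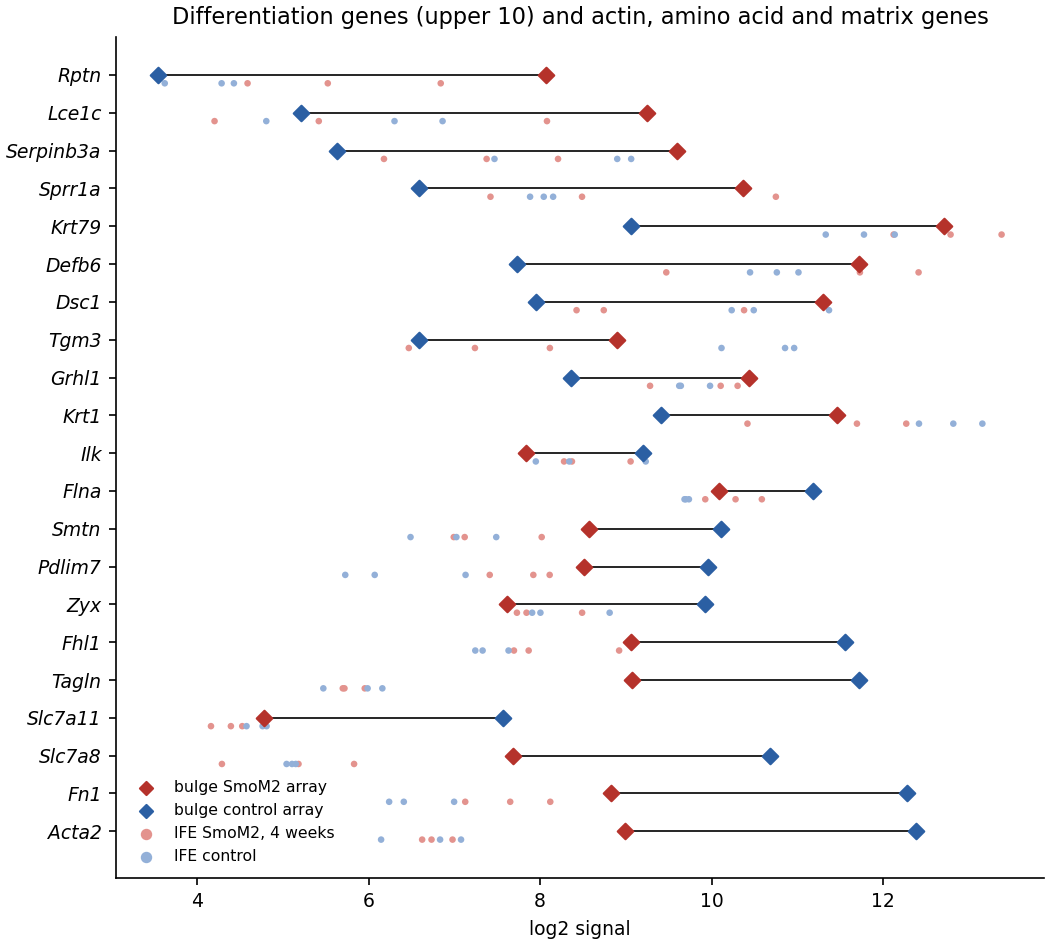
Log2 signal of 21 genes in bulge SmoM2 (red diamonds) and bulge control (blue diamonds), joined by a line, with the 3 IFE SmoM2 arrays at 4 weeks and the 3 IFE controls as small points below each line. Bulge SmoM2 lies to the right of bulge control for the upper 10 genes and to the left for the lower 11, and for genes such as Acta2, Tagln, Slc7a8 and Fn1 both bulge arrays lie right of all 6 IFE points.

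Amino acid transporters and glutathione genes were lower together. In this list, also set after the values were seen, 14 of 16 were below 0, 9 were at least 2-fold lower and 0 were 2-fold higher, with a median of -1.28. Over all genes 2.59% were 2-fold lower and 6841 of 14286 were below 0. Slc7a11, the cystine importer, was 4.78 in bulge SmoM2 and 7.56 in bulge control, with both probe sets lower. Slc7a8, which carries large neutral amino acids, was 7.68 and 10.68. Slc3a2, the heavy chain that both transporters need, was 10.83 in bulge SmoM2 and 12.50 in bulge control. Slc1a3, a glutamate carrier of basal epidermis, differed by -3.89 to -1.43 across its 6 probe sets. Gclc, which makes the first step of glutathione synthesis, was 9.86 in bulge SmoM2 and 11.58 in bulge control, and Oplah, of the glutathione cycle, was 9.19 and 10.50.

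Matrix and adhesion genes went both ways. Fn1, fibronectin, was 8.83 in bulge SmoM2 and 12.27 in bulge control (10.9-fold lower, both probe sets). Adamts20, a secreted protease, had the largest negative difference beyond the IFE spread, at 6.97 in bulge SmoM2 and 10.50 in bulge control, with every 4-week and control IFE array at 4.05 or less. Htra1, another secreted protease, was 8.35 and 11.46, and Timp1, an inhibitor of matrix proteases, was 5.78 and 7.89. The integrin chains Itga2 (4.99 in bulge SmoM2, 7.04 in bulge control), Itga3 (7.27 and 9.19) and Itgb4 (8.70 and 10.18), which bind basement membrane and collagen, were lower. Itgb8, which activates TGF-β, was higher at 9.72 in bulge SmoM2 and 8.27 in bulge control. Col16a1 differed by -2.20, whereas Col1a2, Col3a1 and Col6a3 were higher by 1.94, 2.93 and 1.90, and the proteoglycan Lum by 1.62.

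Those last 4 are fibroblast genes, and no other gene of that list was 2-fold higher. In bulge control Col3a1 (4.33) and Lum (4.18) were below the 40th percentile of the array. Of the 11 fibroblast genes that passed, 4 were 2-fold higher and 2 were 2-fold lower, beside 4.35% and 2.59% over all genes. Cd248, a surface protein of fibroblasts and pericytes, was 6.44 in bulge SmoM2 and 7.64 in bulge control, beyond the IFE spread, and Thy1 was 6.68 and 9.21, inside an IFE spread of 3.04. Col1a1 was 5.26 in bulge SmoM2 and 5.63 in bulge control, and Pdgfra was 4.44 and 4.48, below the 40th percentile of both arrays. Over the 16 fibroblast genes measured, 9 were above that percentile in bulge SmoM2 and 6 in bulge control, with mean signals of 5.43 and 5.12. The IFE arrays had means of 4.51 to 5.14. Their part in the collagen difference was not tested.

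In the Wnt lists, the ligands Wnt5b (5.91 in bulge SmoM2, 7.56 in bulge control) and Wnt9a (5.74 and 7.04, a difference of -0.69 with the mean of its probe sets) and the receptor Fzd4 (6.58 and 9.09, with 3 of 3 probe sets lower) were beyond the IFE spread. None of the 14 nuclear factors and targets differed 2-fold, including Axin2 at 6.29 in bulge SmoM2 and 6.08 in bulge control, Lef1 at 7.40 and 6.76, and Ctnnb1 at 13.42 and 13.45. Medians of the 4 Wnt lists lay between -0.07 and 0.13. For Notch, Notch2 (10.34 in bulge SmoM2, 9.01 in bulge control, 1 of 2 probe sets) and the target Heyl (6.75 and 5.36) were higher, and the ligand Jag2 (8.04 and 9.39) was lower. With the mean of probe sets Notch2 and Heyl differed by 0.53 and 0.97, short of 2-fold.

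In BMP and TGF-β signalling the protease Bmp1, which also trims procollagen, differed by -1.49 (-0.99 with the mean of its probe sets) and the ligand Bmp4 by 1.81, the second inside its IFE spread of 1.92. The receptor Erbb3 was 10.50 in bulge SmoM2 and 9.07 in bulge control, but differed by 0.78 with the mean of its probe sets. In the insulin-like growth factor axis 8 of 10 genes were below 0 and 4 were 2-fold lower, beside 2.59% over all genes. The median was -0.60. Igfbp3, the main carrier of the growth factors, was 8.98 in bulge SmoM2 and 11.55 in bulge control. The chemokines Cxcl1 and Cxcl2, which draw neutrophils, were higher by 1.33 and 2.98, while Cxcl12 and the cytokine Tslp differed by -2.63 and -1.53.

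Cell cycle genes were nearly level. None of 22 DNA replication genes and none of 23 mitosis genes differed 2-fold, with medians of -0.10 and 0.16. The mitosis genes leaned one way, with 22 of 23 above 0, and the replication genes the other, with 19 of 22 below 0. Over all genes 7445 of 14286 were above 0 and 6841 were below 0. Mki67, a marker of cycling cells, was 11.48 in bulge SmoM2 and 11.12 in bulge control, inside an IFE spread of 2.32. Sterol and fatty acid synthesis genes had a median of 0.34 and the unfolded protein response one of 0.02, with 0 genes at 2-fold in either.

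Many stress and immune genes were higher in the SmoM2 array, but few passed the IFE spread. Immediate-early and dissociation stress genes, which rise when tissue is handled, were above 0 in 23 of 25 cases. Of the 25, 8 were at least 2-fold higher, beside 4.35% over all genes, and the median was 0.82. Only Nr4a2 (7.92 in bulge SmoM2, 5.36 in bulge control) and Klf2 (6.89 and 5.66) passed the IFE spread, beside 1.73% over all genes. Fos was 13.97 and 13.63. Of 17 leukocyte genes 8 were 2-fold higher, again beside 4.35% over all genes, with a median of 0.99. The mean over all 19 measured was 6.42 in bulge SmoM2 and 5.55 in bulge control, with IFE arrays from 5.01 to 6.59. H2-Eb1, of antigen-presenting cells, was 8.38 and 6.63, Ptprc (CD45) was 5.88 and 4.03, and Cd207, of Langerhans cells, was 6.24 and 5.17. Interferon and antigen presentation genes had a median of 0.63, and Gbp2 was 7.63 and 3.98 with an IFE spread of 3.93. The part of these signals in other differences was not tested. In sorted bulk RNA, fewer cells of a type and less RNA per cell cannot be told apart.

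Genes of other cell types are given for their level. Sebaceous gland genes averaged 7.69 in bulge SmoM2 and 7.08 in bulge control, melanocyte genes 6.08 and 5.71, and muscle genes 4.89 and 4.98. Endothelial and mural genes averaged 5.71 in bulge SmoM2 and 6.07 in bulge control, where Acta2 was the one gene beyond the IFE spread, while Pecam1 and Vwf were below the 40th percentile of both arrays. All 3 erythroid genes measured were below it in both. Krt8, a simple keratin of Merkel cells and of some bulge cells, was 8.80 in bulge SmoM2 and 10.91 in bulge control.

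For the genes beyond the IFE spread, the place of each bulge array among all 14 IFE arrays was counted. For the 247 genes that were higher, bulge control was below every IFE array in 137, bulge SmoM2 was within the IFE range in 164 and above it in 72. In 54 of them bulge control was below the 40th percentile of its array. For the 188 that were lower, bulge control was above every IFE array in 151, bulge SmoM2 within the IFE range in 110 and above it in 52. These positions follow in part from choosing large differences, and from a yardstick that can be small where IFE signal is low. The median fold was 3.21 for the higher genes and 2.90 for the lower ones.

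The IFE difference, SmoM2 at 4 weeks minus control, uses none of the bulge arrays. Across 14286 genes, which are not independent, Pearson's r between the bulge and IFE differences was -0.01 and Spearman's rho -0.04. In the IFE 581 genes were higher (4.07%) and 324 lower (2.27%), with means at least 2-fold apart and the 3 SmoM2 arrays all on one side of the 3 controls. Of the 581, 87 (15%) were 2-fold higher and 39 (6.71%) 2-fold lower in bulge SmoM2, and 455 differed less, with a median of 0.13. Of the 324, 75 (23.1%) were 2-fold higher and 32 (9.88%) 2-fold lower, with a median of 0.24. Both sets stand beside 4.35% higher and 2.59% lower over all genes, so each had larger shares in both directions. Bulge control itself was at least 2-fold above the IFE control mean in 360 of the 581 genes and 2-fold below it in 9. Of the 324, it was 2-fold below that mean in 230 and above it in 9. Over all genes 7.24% were 2-fold above and 5.68% 2-fold below. Neither r nor rho takes these levels into account. The difference between the bulge and IFE responses was not tested, and the IFE cells came from another Cre line.

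A few named genes went the same way in both. Prdm1 was higher by 1.99 in the bulge and 3.09 in the IFE, Foxc1 by 3.08 and 1.14, Pwwp3b by 3.57 and 3.00, and Rptn by 4.52 and 1.54. Igfbp3 was lower in both, by -2.57 in the bulge and -2.64 in the IFE, as were Htra1 (-3.10 and -1.25), Itga3 (-1.92 and -0.92) and Ccnd2 (-1.61 and -1.17). Of the 247 higher genes, 23 were also higher in the IFE (9.31% of this list and 3.96% of the 581) and 21 were lower there (8.50% and 6.48% of the 324). Of the 188 lower genes, 9 were also lower in the IFE (4.79% and 2.78%) and 14 were higher there (7.45% and 2.41%). Over all genes 4.07% were higher and 2.27% lower in the IFE by this rule.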

How the data were processed

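Cells were sorted by flow cytometry and, per the labels' protocols, their RNA was amplified with a 3′ in vitro transcription kit for Affymetrix arrays. Signals of 45101 probe sets were available from 16 arrays. The deposited values are on a log2 scale, as their range shows, and array medians ran from 5.38 to 5.53. R 2.14.0 is the tool in the submitters' processing notes; how background, scaling and probe set summary were handled is not given in the sources used here.

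Probe sets were named with GEO's platform annotation: 34958 had 1 gene, 932 several and 9211 none, and 64 were array controls. A gene's value is that of its brightest probe set by mean over 16 arrays. No further normalization was applied. With 1 array a side, differences are values, and none has a p-value; precision is limited by the number of arrays. The yardstick came from 13 arrays of 5 IFE groups (11 pairs), without the lone 3-day array. Members and lists were chosen with earlier results of these data known, and 6 of the lists after the bulge values were seen. Named genes are the 15 largest differences each way beyond the spread, up to 4 of each of the other 47 lists beyond it (or else the 2 largest), and hedgehog, bulge and sex-linked genes; further genes were chosen after their values were seen. Some list genes are not analysed here. Alternatives changed the probe set rule, filter, scaling, threshold and yardstick. Python 3.11.15 was used with pandas and numpy.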

Additional observations from a re-analysis of the deposited data

Results flagged for a closer look

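In 16 named or listed genes the bulge arrays differed one way beyond the IFE spread, while all 3 IFE SmoM2 arrays at 4 weeks lay on the other side of all 3 IFE controls. These are 16 of 106 such genes called in the bulge, beside 20 that went the same way. Over all 435 genes beyond the IFE spread, 82 went the opposite way and 69 the same way by this rule, so opposite directions are not particular to the named genes. The share of all 14286 genes with IFE groups apart is not given here, so these counts are not read as an excess. The difference between bulge and IFE was not tested in any of them, since the bulge has 1 array a side, and the IFE cells came from another Cre line.

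Higher in bulge SmoM2 and lower in IFE SmoM2 were several differentiation and barrier genes. The transglutaminase Tgm3 differed by 2.31 in the bulge and -3.37 in the IFE, and the keratin Krt1 by 2.05 and -1.34. The ceramidase Acer1 differed by 3.55 and -2.13, and Dgat2, which makes triglycerides, by 1.61 and -0.52. The transcription factors Klf5 (1.43 and -0.96) and Tfap2c (1.11 and -1.26) did the same, as did Adh6b (3.41 and -2.85) and Gpm6a (4.04 and -2.60).

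Lower in bulge SmoM2 and higher in IFE SmoM2 were genes of matrix and cytoskeleton. Fibronectin, Fn1, differed by -3.45 in the bulge and 1.08 in the IFE, and the protease Bmp1 by -1.49 and 0.78. The actin-associated genes Fhl1 (-2.49 and 0.76), Pdlim7 (-1.45 and 1.504) and Flna (-1.10 and 0.56) did likewise. Krt19 differed by -2.85 and 0.44, and the ligands Dhh and Wnt9a by -1.08 and 0.61 and by -1.30 and 0.58. With the mean of a gene's probe sets the bulge differences of Dhh (-0.66), Wnt9a (-0.69), Bmp1 (-0.99) and Tfap2c (0.74) fell short of 2-fold.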

How the results depend on the processing

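No paired analysis was possible because each bulge condition has 1 array and its differences come from no test. With a 4-fold threshold 166 genes were higher and 71 lower, of which 91 and 53 were beyond the IFE spread. With the yardstick from the 3 IFE control arrays only, 521 were higher and 299 lower beyond it. Leaving out each IFE replicate in turn gave 247 to 334 higher and 188 to 214 lower. The yardstick is the largest replicate difference, so with fewer IFE arrays these counts could not fall and no call could be lost. Such settings are therefore no check on the calls. The other alternatives (mean of a gene's probe sets, other filters, quantile normalization, centring, loess and a yardstick from the pooled SD) left all counts within 1.5 times. Of the 435 genes beyond the spread, 342 were also called with the mean of probe sets and 398 after quantile normalization. List medians moved by less than the replicate spread in 308 of 312 values over 52 lists. With the mean of probe sets the fibroblast list had a median of 0.49 and the Merkel and nerve list -1.24. With the filter on the mean of both bulge arrays the hair shaft and inner root sheath list had 1.36 and the fibroblast list 0.76. Of 1020 values of 170 named genes, 22 moved and 0 changed sign in a called gene, all 22 with the mean of probe sets. There Acta2 was -1.61, Rptn 1.46, Ehf 2.24 and Slc7a11 -3.32. The named genes that passed the spread but fell short of 2-fold with it were Dhh (-0.66), Wnt9a (-0.69), Gstm1 (-0.75), Bmp1 (-0.99), Notch2 (0.53), Heyl (0.97), Erbb3 (0.78), Tfap2c (0.74) and Mbp (0.38). No alternative supplies the missing bulge replicates.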
